A study of Mus musculus with 3 samples.

Results

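Inhibitory checkpoint receptors and their ligands were measured in immune cells of inflamed mouse sciatic nerve. The set holds 10 of the 32285 gene rows counted in each library. Its 5 receptor genes are Pdcd1 (PD-1), Ctla4, Lag3, Havcr2 (TIM-3) and Tigit. Its 5 ligand genes are Cd274 (PD-L1), Pdcd1lg2 (PD-L2), Cd80, Cd86 and Lgals9 (galectin-9). The genes were listed by name, and the rule sets no threshold on their values. Single-cell RNA-Seq had been run on CD45+ cells sorted out of the sciatic nerves of NOD.AireGW/+ mice with neuropathy, a nonobese diabetic strain with 1 mutated copy of Aire, the gene that lets the thymus display self antigens. Libraries 1 and 2 each hold the cells of 1 mouse, and library 3 pools 2 mice. All 3 libraries belong to this 1 group, so every comparison is between cell classes within nerves and none is between neuropathic and healthy nerve. Ages and sexes were not in the labels, and CD45+ sorting removed most nerve cells that are not immune cells, so ligands on Schwann or endothelial cells could not be seen.

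Checkpoint receptors are surface proteins that T cells raise after activation and that dampen further signaling through the T cell receptor. PD-1 binds PD-L1 and PD-L2 and recruits phosphatases to the receptor complex. CTLA-4 competes with the activating receptor CD28 for CD80 and CD86, and regulatory T cells hold it at high levels. LAG-3 binds MHC class II, TIGIT binds CD155, and galectin-9 is among the proposed partners of TIM-3, which myeloid cells carry as well. In autoimmune tissue these receptors are often found on T cells that have met antigen, though not only on those. Loss of PD-1 or its ligand signal worsens autoimmunity in NOD mice.

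Cells were assigned to classes from their own counts of marker genes. T cells had at least 2 unique molecular identifiers (UMIs, 1 per captured RNA molecule) of 6 T cell receptor complex genes. CD4 cells carried a Cd4 UMI without Cd8 or Foxp3, CD8 cells a Cd8a or Cd8b1 UMI without Cd4 or Foxp3, and Foxp3 cells, the regulatory T cell class, a Foxp3 UMI without Cd8. There were 603, 829 and 183 CD4 cells in libraries 1, 2 and 3, 943, 991 and 257 CD8 cells, and 373, 497 and 110 Foxp3 cells. Of these Foxp3 cells, 143, 220 and 68 had exactly 1 Foxp3 UMI. The CD4 class can therefore hold regulatory T cells whose Foxp3 RNA was not captured, and their number was not measured. Of all 2785, 3874 and 1223 T cells, 507, 1370 and 661 had no Cd4, Cd8 or Foxp3 UMI and so joined no class. B cells numbered 303, 306 and 61, and monocytes 52, 189 and 32. Macrophages numbered 5, 1725 and 2, mature dendritic cells (DC) 7, 58 and 6, cDC1 29, 136 and 10, cDC2 7, 23 and 4, and plasmacytoid DC (pDC) 53, 114 and 6. Counts were summed over the cells of a class in a library, and a level is given in CPM, the UMIs of a gene per 1000000 UMIs of that sum. Sums of under 10 cells stayed out of the tests, so macrophages, mature DC and cDC2 were tested on library 2 alone and take their spread from the other classes.

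After filtering, 3848, 8256 and 1533 cells remained, with a median of 3956, 4632.5 and 1726 UMIs per cell, and library 3 was the shallowest. The 3 libraries shared 36, 7 and 14 cell barcodes between pairs 1 and 2, 1 and 3, and 2 and 3, at most 0.917% of the smaller library. Libraries 1 and 3 had almost no macrophages. RNA of macrophages also appeared in other classes of library 2. The summed level of 5 macrophage markers (C1qa, Mrc1, Ms4a7, Adgre1 and Trem2) was 11275 CPM in its macrophages, 51.0 to 126 CPM in its CD4, CD8 and Foxp3 sums and 679 CPM in its B cells, against 0 to 16.5 CPM in the T cell sums and 0 to 2.93 CPM in the B cells of libraries 1 and 3. The gates themselves used the class markers, so the levels of these only describe the classes. Fscn1, an actin bundler of mature DC, was at 1865, 2459 and 1324 CPM in mature DC and at most 3.08 CPM in cDC1, Xcr1 was at 226, 174 and 105 CPM in cDC1, and Siglech was at 1888, 1800.1 and 1961 CPM in pDC.

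In the GENCODE M21 annotation of GRCm38 (mm10), all 10 members are protein-coding genes. Pdcd1 lies at chr1:94038305-94052553 on the minus strand and Ctla4 at chr1:60887000-60915832 on the plus strand, between Cd28 and Icos. Lag3 lies at chr6:124904361-124911705 on the minus strand, 16140 bases from Cd4, and Havcr2 at chr11:46454935-46481255 on the plus strand. Tigit lies at chr16:43648867-43664146 on the minus strand. Cd274 lies at chr19:29367455-29388095 and Pdcd1lg2 at chr19:29410919-29471161, neighbors on the plus strand with a gap of 22824 bases. Cd80 lies at chr16:38455561-38496335 on the plus strand, Cd86 at chr16:36603869-36666081 on the minus strand, and Lgals9 at chr11:78962974-78984946 on the minus strand. Cd274 and Pdcd1lg2 each overlap an antisense gene (AC119228.1 and A930007I19Rik), and Ctla4 overlaps the pseudogene Rpl18-ps1. Both antisense genes lie on the strand opposite their partner, and Rpl18-ps1 lies on the same strand as Ctla4. How the counting treated reads from such overlaps is not given in the sources used here and was not tested.

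Promoter windows are shown for the ligands that stood highest in mature DC, Cd274, Pdcd1lg2 and Cd80, and for Lgals9, which did not. Cd86 has no entry in the table used, nor has Lag3. The RefSeq table for GRCm38.p6 holds 8 of the 10 members, as 250 bases before and 50 bases after the annotated start. Each was searched on both strands for an NF-kB-like motif (GGG, any 5 bases, CC), an interferon-response motif (GAAA, any 2 bases, GAAA) and an interferon-gamma-activated motif (TTC, any 3 bases, GAA). Over all 32851 windows of this length, 50.8%, 3.44% and 8.30% held them. In the first 3 sequences capitals mark the NF-kB-like motif, and in Lgals9 they mark the interferon-response motif.
Cd274, chr19:29367188-29367487, plus strand: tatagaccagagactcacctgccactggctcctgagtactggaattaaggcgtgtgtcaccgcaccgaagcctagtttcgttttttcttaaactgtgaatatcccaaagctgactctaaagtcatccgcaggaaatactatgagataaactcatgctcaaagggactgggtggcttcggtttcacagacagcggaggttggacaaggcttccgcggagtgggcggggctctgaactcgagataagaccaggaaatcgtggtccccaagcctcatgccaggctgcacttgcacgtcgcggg
Pdcd1lg2, chr19:29410669-29410968, plus strand: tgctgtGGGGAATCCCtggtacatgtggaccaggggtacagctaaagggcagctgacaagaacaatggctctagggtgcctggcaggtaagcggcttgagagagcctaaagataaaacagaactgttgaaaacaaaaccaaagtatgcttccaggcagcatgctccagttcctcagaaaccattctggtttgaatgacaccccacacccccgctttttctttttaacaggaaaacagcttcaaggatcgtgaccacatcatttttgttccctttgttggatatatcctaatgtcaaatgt
Cd80, chr16:38458683-38458982, plus strand: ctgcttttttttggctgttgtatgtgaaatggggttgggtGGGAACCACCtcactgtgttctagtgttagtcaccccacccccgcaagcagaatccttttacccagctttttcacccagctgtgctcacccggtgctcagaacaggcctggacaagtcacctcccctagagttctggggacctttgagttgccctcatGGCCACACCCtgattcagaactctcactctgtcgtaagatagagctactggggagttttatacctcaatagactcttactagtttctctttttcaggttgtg
Lgals9, chr11:78984875-78985174, minus strand: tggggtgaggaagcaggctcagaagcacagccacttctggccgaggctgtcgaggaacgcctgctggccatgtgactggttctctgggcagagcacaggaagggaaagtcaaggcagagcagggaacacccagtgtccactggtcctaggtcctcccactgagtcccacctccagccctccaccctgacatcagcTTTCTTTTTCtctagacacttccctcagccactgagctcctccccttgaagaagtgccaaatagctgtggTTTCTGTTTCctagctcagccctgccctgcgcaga
The Pdcd1lg2 window held the NF-kB-like letters at 1 place, which reads as a match on both strands, and the Cd80 window at 2 places. The Cd80 window lies inside the GENCODE span of that gene, downstream of the start given there. The Cd274 window held none of the 3 motifs. Lgals9 was the only 1 of the 8 members with a window that held the interferon-response letters, at 2 places, and its window also held the NF-kB-like letters once, left in lower case. No member's window held the interferon-gamma-activated letters. These are matches of letters within 300 bases and say nothing about binding in these cells.

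Each T cell class carried a different mix of the receptors. Pdcd1 and Havcr2 were higher in CD8 cells than in both other classes, Ctla4 was highest in Foxp3 cells and lowest in CD8 cells, and Tigit was highest in Foxp3 cells. Levels are compared for 1 gene between classes, since genes differ in capture. Over the 10 members, CD8 against CD4 gave 3 higher and 3 lower at an adjusted p under 0.05 (edgeR quasi-likelihood test with library as a block), where 7.97% of the 9661 genes tested were higher and 8.82% lower. Foxp3 against CD4 gave 3 higher and 1 lower, where 4.35% of genes were higher and 4.46% lower. Foxp3 against CD8 gave 5 higher and 4 lower, where 11% of genes were higher and 9.62% lower.

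**Figure D1:**
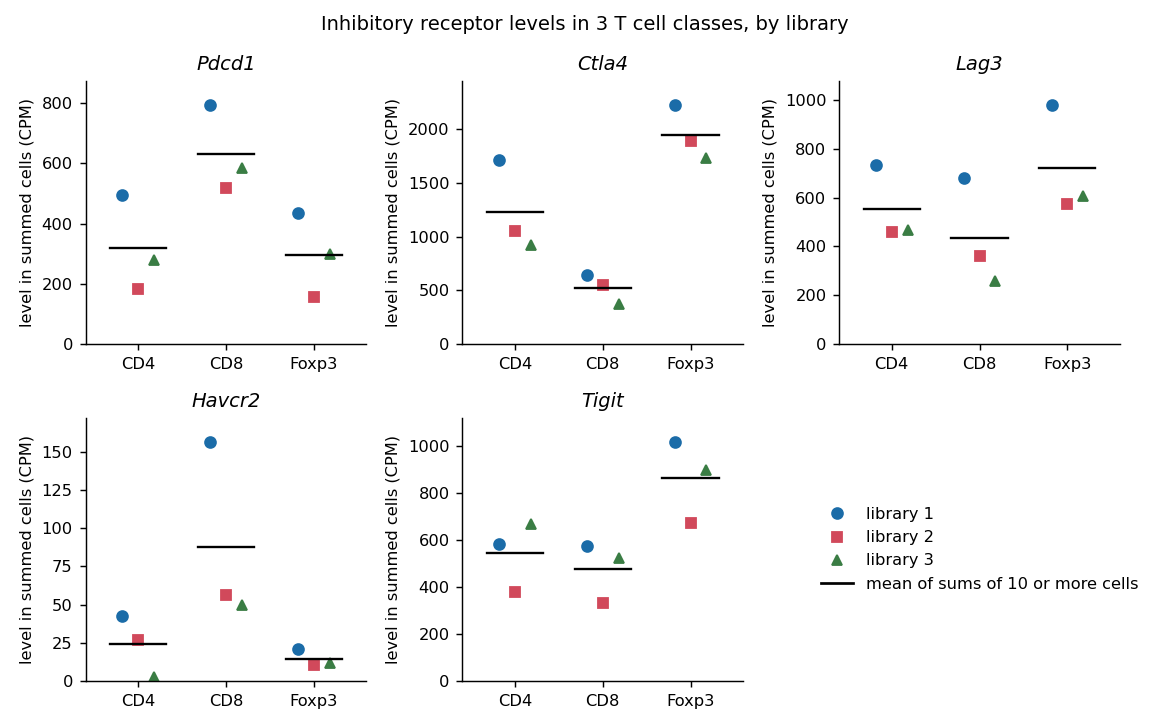
Level of each receptor gene (CPM of summed cells, linear axis) in CD4, CD8 and Foxp3 T cells. Each point is 1 library and the black line is the mean of the 3. The CD8 points of Pdcd1 lie at 793, 518 and 583 CPM and all exceed the CD4 and Foxp3 points of the same library, whereas the Foxp3 points of Ctla4 lie above all others.

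Pdcd1 encodes PD-1. In CD8 cells it was at 793, 518 and 583 CPM in libraries 1, 2 and 3. In CD4 cells it was at 495, 184 and 279 CPM, and in Foxp3 cells at 435, 155 and 299 CPM. Every CD8 value was above every CD4 and Foxp3 value, and the CD4 and Foxp3 ranges overlapped. The log2 difference was 1.20 ± 0.14 (SE) for CD8 against CD4 (adjusted p = 3.55e-06) and -1.41 ± 0.14 for Foxp3 against CD8 (adjusted p = 5.43e-07). Foxp3 and CD4 cells differed by -0.22 ± 0.15, which did not pass the threshold (adjusted p = 0.485). B cells, which can carry PD-1 at low levels, held 11.7, 1.31 and 7.95 CPM, and the library 2 macrophages 1.74 CPM. Among cells thinned to 1000 UMIs each, 37.0% ± 8.83 (SD, n = 3 libraries) of CD8 cells had a Pdcd1 UMI, beside 0.573% ± 0.729 of B cells at the same depth.

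Ctla4, the competitor of CD28 for CD80 and CD86, was at 2227, 1896 and 1731 CPM in Foxp3 cells. It was at 1714, 1053 and 924 CPM in CD4 cells and at 648, 550.0 and 377 CPM in CD8 cells. The 3 classes did not overlap, and their order was the same in each library. The log2 difference was 0.61 ± 0.09 for Foxp3 against CD4 (adjusted p = 0.000268), 1.70 ± 0.10 for Foxp3 against CD8 (adjusted p = 2.79e-10) and -1.09 ± 0.10 for CD8 against CD4 (adjusted p = 1.33e-07). At 1000 UMIs per cell, 76.3% ± 5.42 of Foxp3 cells, 54.1% ± 10.3 of CD4 cells and 34.6% ± 8.48 of CD8 cells had a Ctla4 UMI, beside 1.46% ± 1.27 of B cells.

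Tigit, whose product binds CD155 on antigen-presenting cells, was at 1019, 673 and 897 CPM in Foxp3 cells. It was at 581, 379.7 and 669.8 CPM in CD4 cells and at 572, 330.0 and 522 CPM in CD8 cells. Foxp3 cells were higher than CD4 and CD8 cells of the same library each time, although the lowest Foxp3 value and the highest CD4 value were nearly equal. The log2 difference was 0.64 ± 0.09 for Foxp3 against CD4 (adjusted p = 0.000147) and 0.71 ± 0.09 for Foxp3 against CD8 (adjusted p = 1.20e-05). CD8 and CD4 cells differed by -0.06 ± 0.09 (adjusted p = 0.726).

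Lag3, whose product binds MHC class II, was at 979, 573 and 606 CPM in Foxp3 cells, 732, 459.6 and 469 CPM in CD4 cells and 682, 361 and 258 CPM in CD8 cells. The 3 ranges overlapped, while the order Foxp3, CD4, CD8 held within each library. The log2 difference of Foxp3 against CD8 was 0.55 ± 0.10 (adjusted p = 0.000725). With stricter gates, which left 188, 224 and 75 Foxp3 cells, it was -0.22 (adjusted p = 0.353), so both the direction and the call rest on how T cells were gated. Foxp3 against CD4 at 0.29 ± 0.11 (adjusted p = 0.113) and CD8 against CD4 at -0.25 ± 0.10 (adjusted p = 0.113) did not pass.

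Havcr2 encodes TIM-3, which T cells carry late after repeated stimulation. It was at 157, 56.0 and 49.8 CPM in CD8 cells, 42.5, 27.1 and 2.68 CPM in CD4 cells and 20.9, 10.2 and 12.0 CPM in Foxp3 cells. Every CD8 value was above every CD4 and Foxp3 value, and library 1 stood well above the other libraries in CD8 cells. The CD4 value of library 3 rested on 1 UMI. The log2 difference was 1.69 ± 0.19 for CD8 against CD4 (adjusted p = 3.60e-06) and -2.86 ± 0.24 for Foxp3 against CD8 (adjusted p = 4.31e-08). Foxp3 against CD4 was -1.17 ± 0.28 (adjusted p = 0.0113), and this call passed in 6 of 12 alternatives. It was lost without library 1 (adjusted p = 0.0733), without library 2 (0.194), under DESeq2 (0.158), with strict gates (0.174), with classes from clusters (0.463) and without the library block (0.971).

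Some ligand genes were also detected in T cells. Cd274 was at 90.4, 47.8 and 91.1 CPM in CD4 cells, 41.2, 32.2 and 48.4 CPM in CD8 cells and 84.1, 51.8 and 63.8 CPM in Foxp3 cells. Pdcd1lg2 was at 27.5, 35.9 and 58.9 CPM in CD4 cells, 12.4, 14.0 and 29.3 CPM in CD8 cells and 36.7, 47.0 and 95.7 CPM in Foxp3 cells. Both genes, which encode the ligands of PD-1, were therefore lowest in the CD8 class of each library. CD8 against CD4 was -0.77 ± 0.15 for Cd274 (adjusted p = 0.00103) and -1.11 ± 0.17 for Pdcd1lg2 (adjusted p = 7.80e-05), and Foxp3 against CD8 was 0.64 ± 0.16 (adjusted p = 0.00539) and 1.48 ± 0.17 (adjusted p = 2.23e-06). Without library 1 the Cd274 calls were lost, at adjusted p = 0.108 and 0.260 in that order.

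The ligands of CD28 and CTLA-4 showed the other pattern among T cells, at far lower counts. Cd80 was at 30.9, 14.2 and 11.7 CPM in CD8 cells, from 144, 62 and 8 UMIs. It was at 4.00, 3.05 and 0 CPM in CD4 cells and at 12.7, 8.23 and 3.99 CPM in Foxp3 cells. Every CD8 value was above every CD4 value, with a log2 difference of 2.76 ± 0.33 (adjusted p = 6.10e-06). Foxp3 against CD8 was -1.25 ± 0.28 (adjusted p = 0.00311, and 0.193 without library 1), and Foxp3 against CD4 was 1.51 ± 0.41 (adjusted p = 0.0256, and 0.338 and 0.151 without library 1 and without library 2). The last call passed in 6 of 11 alternatives. The summed macrophage markers were 1.50, 51.0 and 13.2 CPM in CD8 cells against 16.5, 111 and 0 CPM in CD4 cells, and their part in the Cd80 difference was not tested.

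Cd86 was at 18.9, 12.6 and 13.2 CPM in CD8 cells, 10.5, 7.79 and 0 CPM in CD4 cells and 3.80, 8.23 and 0 CPM in Foxp3 cells. Foxp3 against CD8 was -1.58 ± 0.41 (adjusted p = 0.00904, and 0.243 without library 1), and CD8 against CD4 at 1.03 ± 0.36 did not pass (adjusted p = 0.0567). Lgals9 did not pass in any of these comparisons, with log2 differences of 0.04 ± 0.12, 0.24 ± 0.13 and 0.19 ± 0.13 for CD8 against CD4, Foxp3 against CD4 and Foxp3 against CD8. Its levels were 80.4 to 153 CPM in CD4 cells, 104 to 142 CPM in CD8 cells and 154 to 198 CPM in Foxp3 cells.

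Libraries differed more than classes for several of these genes, and the block carries that spread. Without the block, 2 of the 6 member calls for CD8 against CD4 (Ctla4 and Cd80), none of the 4 for Foxp3 against CD4 and 2 of the 9 for Foxp3 against CD8 (Ctla4 and Havcr2) passed.

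Other checkpoint and costimulation genes also separated the T cell classes. Of 30 listed, 23 were tested, and CD8 against CD4 gave 7 higher and 8 lower. The largest of the same sign in every library were Klrc1 (log2 4.72 ± 0.19) and Cd160 (3.45 ± 0.27), which encode receptors of cytotoxic cells, with Cd244a (2.69 ± 0.31), and, on the lower side, Nt5e (-2.28 ± 0.21), Cd200 (-1.76 ± 0.16) and Cd5 (-1.61 ± 0.10). Foxp3 against CD4 gave 0 higher and 6 lower, led by Cd200 (-1.50 ± 0.17), Ptpn11 (-1.37 ± 0.12) and Btla (-0.96 ± 0.22). Foxp3 against CD8 gave 5 higher and 8 lower.

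Transcription factors linked to T cell activation state moved in both directions. Of the 14 listed and tested, 4 were higher and 6 lower in CD8 than in CD4 cells. Eomes (3.61 ± 0.24), a factor of cytotoxic T cells, led the first and Maf (-2.29 ± 0.13), a factor of helper T cells, the second. Foxp3 against CD4 gave 2 higher and 4 lower, with Ikzf2 (1.67 ± 0.13), which encodes Helios, highest and Tox2 (-1.70 ± 0.27) lowest. Of 10 listed interferon-response and NF-kB genes, 9 were tested, and 2 were higher and 2 lower in CD8 than in CD4 cells, whereas 3 were higher and 0 lower in Foxp3 than in CD4 cells. The 3 were Gbp2 (0.81 ± 0.16), Irf1 (0.72 ± 0.10) and Nfkb2 (0.57 ± 0.14).

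CD8 cells were next split by Tcf7, which encodes TCF-1, a factor of stem-like and memory T cells. Cells with a Tcf7 UMI numbered 227, 190 and 27. All 5 receptors were lower in them than in the 716, 801 and 230 CD8 cells without one. Over the 10 members, 0 were higher and 6 lower, where 2.56% of the 7669 genes tested were higher and 3.7% lower.

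**Figure D2:**
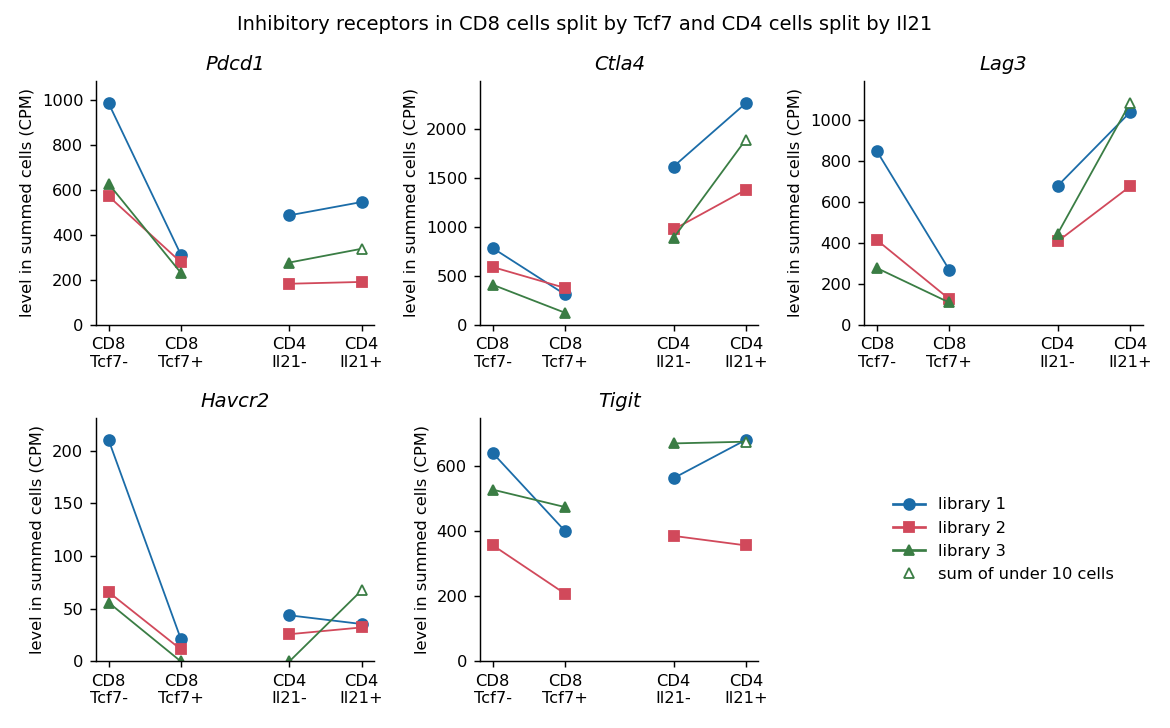
Level of each receptor gene (CPM of summed cells, linear axis) in CD8 cells without and with a Tcf7 UMI and in CD4 cells without and with an Il21 UMI. Lines join the sums of 1 library, and the white symbol is a sum of under 10 cells. All 5 receptors go down from Tcf7- to Tcf7+ in every library, while Ctla4 and Lag3 go up from Il21- to Il21+.

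Havcr2 showed the widest gap. It was at 210.2, 65.8 and 55.9 CPM in Tcf7- cells and at 21.2, 11.4 and 0 CPM in Tcf7+ cells, with a log2 difference of -3.05 ± 0.24 (adjusted p = 2.44e-23). Lag3 was at 846, 413 and 276 CPM in Tcf7- cells against 268, 126 and 108 CPM in Tcf7+ cells, a difference of -1.61 ± 0.15 (adjusted p = 1.33e-17). Every Tcf7- value of both genes lay above every Tcf7+ value.

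Pdcd1 was at 984, 571 and 626 CPM in Tcf7- cells against 311, 278 and 230.3 CPM in Tcf7+ cells, a difference of -1.34 ± 0.14 (adjusted p = 1.71e-14). Ctla4 was at 782, 588 and 408 CPM against 309, 375 and 122 CPM, a difference of -1.03 ± 0.14 (adjusted p = 5.11e-09). Pdcd1 RNA was present on both sides of the split, and neither gene's groups overlapped.

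Tigit had the narrowest gap, at 640.2, 357 and 528 CPM in Tcf7- cells against 400.5, 208 and 474 CPM in Tcf7+ cells. The groups overlapped between libraries, with each Tcf7+ sum below its own Tcf7- sum. The difference of -0.58 ± 0.14 passed the main test (adjusted p = 0.00155) but not DESeq2 (adjusted p = 0.162), nor the fit without library 1 (adjusted p = 0.115) or without library 2 (adjusted p = 0.790). Among the ligands, Cd80 was at 40.7, 16.2 and 13.1 CPM in Tcf7- cells and at 6.06, 5.07 and 0 CPM in Tcf7+ cells, a difference of -2.36 ± 0.42 (adjusted p = 7.90e-06). Cd274, Pdcd1lg2, Cd86 and Lgals9 did not pass, at 0.36 ± 0.23, 0.34 ± 0.37, -0.81 ± 0.41 and 0.14 ± 0.16.

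A Tcf7 UMI is found more easily in a deeper cell, and the median was 4827, 3443.5 and 2203 UMIs in Tcf7+ cells against 3645, 3327 and 2122.5 in Tcf7- cells. The part of depth in these differences was not tested beyond the scaling to CPM. The fit held 6 sums, so its p-values rest largely on a spread shared over all genes. No member call of the split passed without the library block. Of the 14 listed transcription factors, 0 were higher and 5 lower in Tcf7+ cells, with Prdm1 (-1.53 ± 0.28), which encodes Blimp-1, the lowest, then Tox2 (-0.84 ± 0.20) and Nr4a2 (-0.75 ± 0.14). Of the other checkpoint genes, 22 were tested, with 1 higher and 5 lower, led by Entpd1 (-2.15 ± 0.20), which encodes the ectoenzyme CD39.

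CD4 cells were split in the same way by Il21, the cytokine gene at the center of the study. Il21+ cells numbered 78, 129 and 8, so library 3 gave no tested Il21+ sum. With 5 sums in the fit, p-values rest largely on a spread shared over all genes. Il21+ cells held a median of 3599.5 and 3563 UMIs in libraries 1 and 2, against 2848 and 2456 in Il21- cells. Ctla4 and Lag3 were higher in Il21+ cells, and Pdcd1 did not pass the threshold. Il21- cells can include cells whose Il21 RNA was not captured. Of the 8 members tested, 2 were higher and 0 lower, where 2.55% of the 6702 genes tested were higher and 2.3% lower. Cd80 and Cd86 were too low to be tested.

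In libraries 1 and 2, Ctla4 was at 2260.5 and 1376 CPM in Il21+ cells against 1614 and 972 CPM in Il21- cells, a log2 difference of 0.52 ± 0.09 (adjusted p = 2.10e-07). Lag3 was at 1035 and 674 CPM against 677 and 406 CPM, a difference of 0.70 ± 0.11 (adjusted p = 5.70e-08). The 8 Il21+ cells of library 3 held 1890 CPM of Ctla4 and 1080 CPM of Lag3, above 884 and 444 CPM in its Il21- cells. When they were added to the fit, neither call passed, at 0.49 (adjusted p = 0.707) for Ctla4 and 0.68 (adjusted p = 0.189) for Lag3, and neither passed without the block.

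Pdcd1 was at 545 and 190.1 CPM in Il21+ cells against 486 and 182 CPM in Il21- cells, a difference of 0.14 ± 0.14 (adjusted p = 0.765). PD-1 protein is a usual marker of the helper cells that make IL-21, and at the level of RNA its gene did not pass here. Tigit and Havcr2 did not pass either, at 0.11 ± 0.12 and 0.07 ± 0.33, nor did Cd274, Pdcd1lg2 and Lgals9, at -0.21 ± 0.25, 0.43 ± 0.32 and -0.08 ± 0.17. Of the 19 other checkpoint genes tested, 3 were higher and 0 lower, namely Cd200 (1.35 ± 0.12), Btla (1.18 ± 0.27) and Ptpn11 (0.74 ± 0.15). Of 13 transcription factors, 4 were higher, with Irf4 (0.91 ± 0.21), Nfatc1 (0.66 ± 0.14) and Maf (0.46 ± 0.13) the largest, and Ikzf2 was lower (-0.94 ± 0.18).

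Foxp3 cells most often carried more than 1 receptor gene. With each cell thinned to 1000 UMIs, 2 or more of the 5 receptors were found in 68.4%, 52.4% and 60.6% of Foxp3 cells in libraries 1, 2 and 3. The share was 52.9%, 37.9% and 33.1% of CD4 cells and 56.4%, 35.2% and 37.9% of CD8 cells. Foxp3 cells were the highest class in each library, and CD4 and CD8 cells changed order between libraries. With 3 libraries no test was run on these shares. In B cells the share was 0.348%, 0 and 0%, taken here as the background at this depth.

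**Figure D3:**
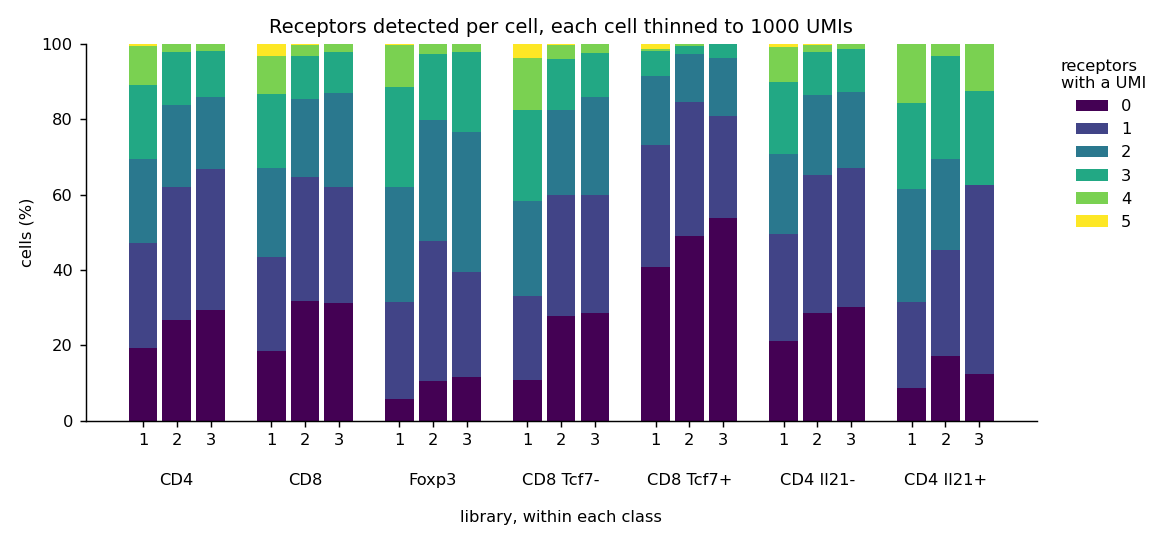
Share of cells (%) by the number of receptor genes, 0 to 5, with a UMI after each cell was thinned to 1000 UMIs. There is 1 bar per library in each class. Cells with none take 40.7% to 53.8% of the Tcf7+ CD8 bars and 5.70% to 11.7% of the Foxp3 bars.

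In CD8 cells with Tcf7 the share with 2 or more receptors was 26.7%, 15.4% and 19.2%, against 67.0%, 40.0% and 40.2% without Tcf7. In CD4 cells with Il21 it was 68.6%, 54.7% and 37.5%, against 50.5%, 34.8% and 32.9% without, the last Il21+ value being from 8 cells. Each library showed the same direction for both splits. All 5 receptors together were found in 3.20%, 0.205% and 0% of CD8 cells.

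Receptor genes were found together in the same CD4 and CD8 cells. Pairs were counted for the 4 receptors other than Havcr2, whose counts were low outside the CD8 cells of library 1. In CD4 cells, the second gene of a pair was more frequent in cells with the first in all 3 libraries for 6 of 6 pairs. The same held for 5 of 6 pairs in CD8 cells and 3 of 6 in Foxp3 cells. Havcr2 was found in 24.9%, 6.64% and 6.12% of CD8 cells with Lag3 and in 7.74%, 2.04% and 2.09% of those without. In library 3 only 3 CD8 cells held both. Lag3 and Tigit paired in each class. Tigit was found in 73.3%, 65.5% and 72.4% of Foxp3 cells with a Lag3 UMI and in 45.3%, 39.2% and 46.2% of those without. Pdcd1 and Lag3 paired in CD4 cells, where Lag3 was found in 50.6%, 43.0% and 42.3% of cells with Pdcd1 and in 27.7%, 23.3% and 16.8% of those without. In Foxp3 cells the same pair showed 45.5%, 42.6% and 25.0% against 41.6%, 28.7% and 32.1%, with no common direction. These counts depend on depth. At 2000 UMIs per cell they were 6, 6 and 3 of 6 for CD4, CD8 and Foxp3 cells, and without thinning, where deeper cells show more of every gene, they were 6 of 6 in each class. Without thinning the Foxp3 shares of Lag3 were 74.0%, 71.9% and 44.1% with Pdcd1 against 51.9%, 38.4% and 38.2%. The cells of a library share 1 mouse or pool, so these shares are a description. Pairs of other genes were not counted, so whether receptor pairs stand out among gene pairs was not tested.

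The ligands were next followed across antigen-presenting cells. Mature DC, which have taken up antigen and migrate by CCR7, had the highest level of 4 of the 5 ligands in library 2, the only library with over 10 of them. Monocytes and macrophages were highest for Lgals9 in that library. Mature DC against cDC1 and cDC2 gave 4 of 10 members higher (Cd274, Pdcd1lg2, Cd80 and Cd86) and 0 lower, where 4.6% of the 9432 genes tested were higher and 0.742% lower. The median over all genes was 0.11 in this comparison, 0.09 for macrophages against monocytes and 0.17 for cDC1 against cDC2 (0.13, 0.12 and 0.11 with DESeq2 size factors), and values are read relative to these shifts.

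**Figure D4:**
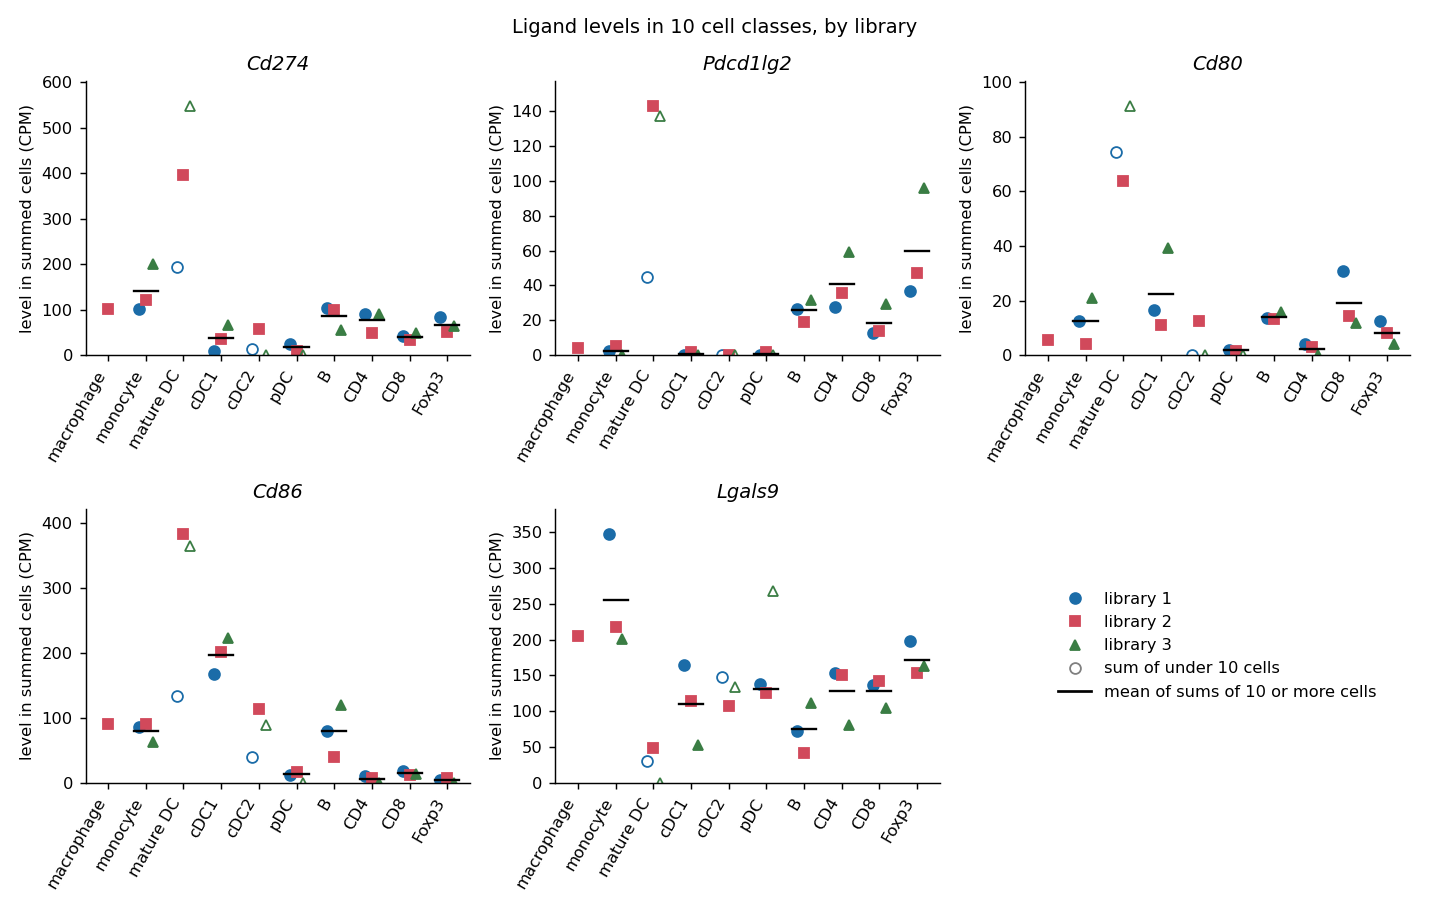
Level of each ligand gene (CPM of summed cells, linear axis) in 10 cell classes. Filled symbols are sums of at least 10 cells, open symbols are smaller sums, black lines are means of the filled symbols where there are at least 2, and the macrophage sums of libraries 1 and 3 (5 and 2 cells) are left out. Among the points drawn, mature DC have the highest for Cd274, Pdcd1lg2, Cd80 and Cd86 but sit at 49.1 CPM or below for Lgals9. The macrophage sum of library 1 that is left out held more Cd86 than any mature DC point.

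Cd274, the main ligand of PD-1, was at 194, 397 and 548 CPM in mature DC, the outer values being from 7 and 6 cells. It was at 101, 122 and 200.3 CPM in monocytes, 101 CPM in the library 2 macrophages and 104, 98.9 and 55.7 CPM in B cells. cDC1 held 9.41, 36.4 and 65.6 CPM, the cDC2 of library 2 held 56.5 CPM, and pDC of libraries 1 and 2 held 25.2 and 9.85 CPM. Mature DC were above every other class of the same library, apart from 5 macrophages of library 1 at 352 CPM (8 UMIs), and monocytes were above the CD4, CD8 and Foxp3 sums of their library. Monocytes and B cells were close in libraries 1 and 2 and differed 3.60-fold in library 3. The log2 difference of mature DC against cDC1 and cDC2 was 3.42 ± 0.49 (adjusted p = 0.00014), which the 10 alternatives that gave a value placed between 3.17 and 3.46. At 1000 UMIs per cell, 30.9% of the 55 mature DC of library 2 had a Cd274 UMI, beside 12.4% of B cells, 11.7% of monocytes, 7.74% of macrophages and 2.21% of cDC1 of that library.

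Pdcd1lg2, the second ligand of PD-1, was at 44.7, 143 and 137 CPM in mature DC, from 3, 67 and 3 UMIs. In library 2 it was at 1.85 CPM in cDC1 (3 UMIs) and listed at 0 in cDC2, and mature DC were at least 7.58-fold above the level that 3 UMIs would give in that cDC2 sum. It passed the test against both DC classes (adjusted p = 1.47e-06). The gene was also low in monocytes (2.47, 5.31 and 0 CPM) and in the library 2 macrophages (3.93 CPM), whereas B cells held 26.3, 18.7 and 31.8 CPM. Outside mature DC, the order was therefore led by Foxp3 and CD4 T cells and B cells, with the other myeloid classes last.

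Cd80 was at 74.6, 64.0 and 91.3 CPM in mature DC, from 5, 30 and 2 UMIs, and at 16.5, 11.1 and 39.4 CPM in cDC1. The cDC2 sum of library 2 held 12.6 CPM from 2 UMIs. B cells held 13.5, 13.1 and 15.9 CPM, monocytes 12.3, 4.24 and 21.1 CPM and the library 2 macrophages 5.45 CPM. Mature DC were highest in each library, and the difference from cDC1 and cDC2 passed (adjusted p = 0.0206). No fold is given for it, since cDC2 held so few UMIs.

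Cd86 was at 134, 384 and 365 CPM in mature DC and at 167, 202 and 223 CPM in cDC1. Mature DC of library 1 (7 cells, 9 UMIs) were thus below cDC1, and those of libraries 2 and 3 above. The 5 macrophages of library 1 held 748 CPM (17 UMIs). The cDC2 of library 2 held 113 CPM, monocytes 86.4, 91.2 and 63.3 CPM, the library 2 macrophages 90.0 CPM and B cells 79.6, 40.1 and 119 CPM. T cell classes and pDC stayed at 18.9 CPM or below. The log2 difference of mature DC against cDC1 and cDC2 was 1.55 ± 0.38 (adjusted p = 0.0173), and it did not pass with sums of at least 5 cells (1.19, adjusted p = 0.0683) or under DESeq2 (adjusted p = 0.0946).

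Lgals9, which encodes galectin-9, ran the other way among DC. It was at 29.8, 49.1 and 0 CPM in mature DC and at 165, 114 and 52.5 CPM in cDC1, a difference of -1.01 ± 0.45 from cDC1 and cDC2 that did not pass (adjusted p = 0.238). Monocytes held 348, 218 and 200.3 CPM, the library 2 macrophages 206 CPM, pDC of libraries 1 and 2 138 and 125 CPM and B cells 72.6, 42.3 and 111 CPM. Monocytes were above the CD4, CD8, Foxp3 and B cell sums in each library.

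Several partner genes moved with the ligands in mature DC. Of 10 interferon-response and NF-kB genes, 5 were higher and 1 lower than in cDC1 and cDC2. Relb (3.03 ± 0.40), a subunit of NF-kB, Cd40 (2.55 ± 0.42), the receptor of T cell help, and Stat3 (1.71 ± 0.33) led, and Cxcl10 was lower (-2.65 ± 0.69). Of 26 other checkpoint genes, 1 was higher, Cd200, and 0 were lower. All of these rest on the library 2 sum of 58 mature DC.

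No ligand passed the test of macrophages against monocytes. Of 10 members, 1 was higher in macrophages and 0 lower, where 2.53% of genes were higher and 1.82% lower. The differences of the 5 ligands ran from -0.01 ± 0.45 (Cd274) to 0.37 ± 0.37 (Cd86). Standard errors were 0.33 (Lgals9) to 0.68 (Pdcd1lg2), so differences of that size or well above it could have been missed. The gene called was the receptor Lag3, at 41.2 CPM (544 UMIs) in the library 2 macrophages against 14.8, 7.43 and 0 CPM in monocytes, a difference of 2.80 ± 0.45 (adjusted p = 0.000838). With classes taken from clusters it was 0.43 and did not pass. Those classes had macrophages only in library 2 and monocytes only in libraries 1 and 3, so no library held both. The checkpoint receptor genes Pdcd1 and Tigit stood at 1.74 and 0.832 CPM in the same macrophages.

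**Figure D5:**
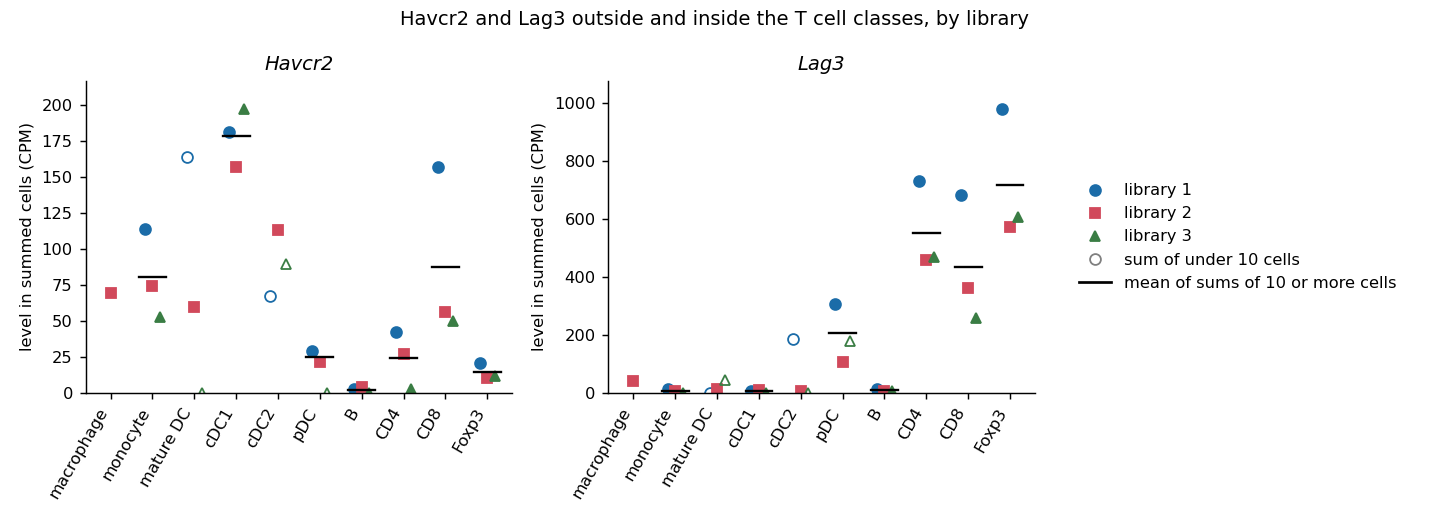
Level of Havcr2 and Lag3 (CPM of summed cells, linear axis) in 10 cell classes, drawn as in the plot of the ligands. Havcr2 is highest in cDC1, at 157 to 197 CPM, and Lag3 is high in the 3 T cell classes and in pDC.

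The receptors were also counted outside T cells. Ctla4 was at 40.4, 54.9 and 23.9 CPM in B cells (69, 126 and 3 UMIs) and Tigit at 23.4, 29.6 and 7.95 CPM, both far below their levels in the T cell classes of the same library. Havcr2 was at 181, 157 and 197 CPM in cDC1, above the 157, 56.0 and 49.8 CPM of CD8 cells in each library. It was at 114, 74.3 and 52.7 CPM in monocytes, 69.4 CPM in the library 2 macrophages and 113 CPM in the library 2 cDC2, and at 2.34, 4.36 and 0 CPM in B cells. At 1000 UMIs per cell, 15.6% ± 5.37 of cDC1 had a Havcr2 UMI, beside 0.116% ± 0.201 of B cells. Lag3 was at 308 and 107 CPM in pDC of libraries 1 and 2, from 159 and 65 UMIs, and at 178 CPM in the 6 pDC of library 3. The 5 macrophage markers were at 21.3 CPM in the pDC of library 1, 1163 CPM in those of library 2 and 0 in those of library 3, and their part in the Lag3 level was not tested. B cells held 13.5, 5.23 and 7.95 CPM of Lag3.

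For cDC1 against cDC2, edgeR called 0 of the 10 members, where 0.297% of genes were higher and 0.742% lower, so that few calls are expected of any 10 genes. At an unadjusted p under 0.05 there were also 0, and DESeq2 called 0. Only 23 cDC2 entered, so the interval of each difference was wide, as for Cd86 (0.76 ± 0.51) and Havcr2 (0.44 ± 0.56).

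Against B and T cells, the pooled myeloid classes (macrophages, monocytes, mature DC, cDC1 and cDC2, equally weighted) gave 3 members higher and 5 lower, where 14.3% of genes were higher and 29.3% lower. The median over all genes was -0.35 in this comparison, and -0.26 with the other size factors, so a difference is read relative to that. Havcr2 (3.09 ± 0.31, adjusted p = 1.56e-07), Cd86 (2.62 ± 0.24, adjusted p = 4.10e-08) and Lgals9 (0.53 ± 0.20, adjusted p = 0.0357) were higher. The Lgals9 call passed in 5 of 10 alternatives, with adjusted p up to 0.179, the value without library 1. Pdcd1, Ctla4, Lag3, Tigit and Pdcd1lg2 were lower, with some myeloid sums at 3 UMIs or fewer, so no fold is given. Cd274 (0.40 ± 0.28, adjusted p = 0.256) and Cd80 (adjusted p = 0.376) did not pass. Of the 10 interferon-response and NF-kB genes, 8 were higher and 0 lower, led by Cxcl9 (5.24 ± 0.43), a chemokine induced by interferon-gamma.

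Likeness between genes was described by Pearson's r of log2(CPM + 1) over the 23 sums of at least 10 cells, among 5434 genes with a mean of at least 20 CPM. These sums come from 3 libraries and share depth and mouse, so r is a description. The genes most like Pdcd1 were Cd6, Thy1 and Cxcr6 (r = 0.977, 0.976 and 0.972), those most like Ctla4 were Tox, Cd2 and Cers4 (0.960, 0.953 and 0.951) and those most like Tigit were Il2rb, Il27ra and Icos (0.957, 0.955 and 0.951). Lag3 was nearest to H2-T22, Ctsw and Il7r (0.947, 0.940 and 0.935) and Havcr2 to Flot1, Efhd2 and Tnfrsf1a (0.891, 0.881 and 0.864). Among ligands, Cd274 was nearest to Cflar, Traf3 and Relb (0.830, 0.693 and 0.689), Pdcd1lg2 to Socs2, Insl6 and Slamf1 (0.933, 0.910 and 0.9005), Cd86 to Cd40, H2-Ab1 and H2-DMb2 (0.909, 0.906 and 0.899), Cd80 to Ggta1, Myadm and S100a11 (0.690, 0.665 and 0.641) and Lgals9 to Myo1f, Tgfb1 and Slc43a2 (0.803, 0.795 and 0.791). Between members, Ctla4 and Tigit were most alike (r = 0.95), whereas Cd274 and Pdcd1lg2, neighbors on the chromosome, reached 0.39.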

How the data were processed

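The authors ran 10X Genomics 5′ single-cell RNA-Seq on CD45+ sciatic nerve cells and deposited UMI counts per gene and cell from Cell Ranger (5.0.1 for library 1 and 6.1.2 for libraries 2 and 3 per the file headers), mapped to mm10. These counts are raw. Library 1 has no gene list of its own, so its rows took the order of the others (Spearman correlation of row totals of 0.929 or more, against at most 0.355 when shifted by 1 row). Deposited cells numbered 3926, 8311 and 1533, with 22983991, 55120460 and 3399733 UMIs. Cells with under 300 UMIs, over 5000 genes or over 20% mitochondrial UMIs were removed. Doublets were kept, and an alternative removed the 118, 545 and 19 cells with the highest scrublet scores (scanpy 1.11.5). CD8 cells with Cd4 or Foxp3 UMIs and T cells with no subset UMI joined only the sum of all T cells.

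Myeloid cells had at least 3 UMIs of a myeloid panel and at least 2 markers of 1 class, more than of any other. Counts were summed per class and library (at least 10 cells) and tested with edgeR 4.0.16 (quasi-likelihood, TMM scaling, filterByExpr, library as a block, Benjamini-Hochberg over all genes tested, threshold 0.05, R 4.3.3). DESeq2 1.42.0 was an alternative, with the others named in the closing section. The block follows from the design, since the classes of a library come from the same mice. Sums of the same library deviated together from their class means (r of 0.50 to 0.79 over 5351 genes). The test was tried on simulated data first. P-values measure the spread between the sums in a fit, with 3 libraries for most classes, 2 for Il21+ cells and pDC, and 1 for macrophages, mature DC and cDC2, which are assumed to vary like the others. Every fit also draws on a spread shared over all genes, so small p-values do not come from the 3 libraries of a gene alone. The fits of T cell classes and of antigen-presenting classes held 9 and 17 sums. The Il21 and Tcf7 splits had only 5 and 6 sums in the fit. Their p-values therefore rest largely on a spread shared over all genes, not on the few pairs of each gene. Fold changes are not given where a class held 3 UMIs or fewer. Intervals and floors cover counting error only.

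The named genes were the 10 members in every comparison, and from each listed pathway the up to 3 largest called genes per direction with the same sign in every library. Members, lists and gates were chosen with earlier results of these data known. Some were left out of the text for space in the comparisons of Foxp3 against CD8 and of myeloid cells against B and T cells.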

Additional observations from a re-analysis of the deposited data

How the results depend on the processing

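Leaving out the replicate block lowered the numbers of genes called, since it takes the spread between libraries as error. Without the replicate block 292 genes were called for CD8 against CD4 (1622 with it), 45 for Foxp3 against CD4 (851), 422 for Foxp3 against CD8 (1996), 2 for the Il21 split (325), 1 for the Tcf7 split (480), 212 for mature DC against cDC1 and cDC2 (504), 55 for macrophages against monocytes (411), 19 for cDC1 against cDC2 (98) and 3527 for myeloid against B and T (4112), and 7 of 33 member calls passed. DESeq2 called 1048, 38, 107 and 236 genes for CD8 against CD4, the Il21 split, the Tcf7 split and macrophages. Strict gates gave 1225 for Foxp3 against CD8, 210 for the Tcf7 split and 250 for macrophages. Classes from clusters gave 113 for the Il21 split and 26 for macrophages. No filter on low counts gave 733 for macrophages and 184 for cDC1 against cDC2. Sums of at least 5 cells, chosen after the cell numbers were seen, gave 118 for the Il21 split and 211 for cDC1 against cDC2. Without 1 library the counts were 798 to 1585 (CD8 against CD4), 362 to 730 (Foxp3 against CD4), 1164 to 1962 (Foxp3 against CD8), 202 (Il21), 138 to 576 (Tcf7), 432 to 514 (mature DC), 319 to 325 (macrophages), 76 to 155 (cDC1 against cDC2) and 2893 to 3828 (myeloid against B and T). Libraries 1 and 2 each moved several of them by over 1.5 times: without library 1 they were 813, 476, 1196, 158 and 155 for CD8 against CD4, Foxp3 against CD4, Foxp3 against CD8, Tcf7 and cDC1 against cDC2, and without library 2 they were 798, 362, 1164 and 138 for the first 4. The causes were not tested.

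Shares per cell follow the depth to which cells are thinned. At 2000 UMIs and without thinning, 2 or more receptors were found in 58.4% and 65.5% of CD4, 61.2% and 71.3% of CD8 and 79.5% and 79.4% of Foxp3 cells. Ctla4 was found in 88.0% and 89.3% of Foxp3 and 49.0% and 61.6% of CD8 cells and, without thinning, in 71.8% of CD4 cells, and Pdcd1 in 51.8% and 58.4% of CD8 cells. Without 1 library, 2 or more receptors were found in 35.5% to 45.4% of CD4, 36.6% to 47.2% of CD8 and 56.5% to 64.5% of Foxp3 cells, Ctla4 in 73.4% to 78.8% of Foxp3, 49.2% to 59.5% of CD4 and 30.8% to 39.2% of CD8 cells, and Pdcd1 in 32.0% to 40.2% of CD8 cells.

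Of 777 member values under the alternatives, 34 changed sign, and 1 of these was a called value. Of the 375 that repeat a called value, 322 stayed called. With strict gates the log2 differences that changed sign were 0.0030 (Lag3), 0.096 (Tigit) and -0.13 (Lgals9) for CD8 against CD4, -0.21 (Lag3) and 0.41 (Cd274) for Foxp3 against CD4, -0.22 (Lag3, the called value) for Foxp3 against CD8, and 4.69 (Ctla4), 0.046 (Cd274) and -0.20 (Cd80) for macrophages against monocytes. With classes from clusters they were 0.040 (Tigit) and -0.012 (Lgals9) for CD8 against CD4, 0.020 (Cd86) for Tcf7, and -0.32 (Havcr2), -1.16 (Pdcd1lg2), -1.30 (Cd80) and -0.69 (Cd86) for macrophages. Without the replicate block they were -0.15 (Tigit) and 0.10 (Lgals9) for Il21, -0.0096 (Pdcd1lg2) for Tcf7 and -0.31 (Cd80) for macrophages. Without library 1 they were 0.017 (Cd86) for Foxp3 against CD4, -0.022 (Cd274) and -0.14 (Pdcd1lg2) for Tcf7 and 1.12 (Pdcd1) for macrophages, and without library 3 -0.022 (Lgals9) for CD8 against CD4. Over the libraries left out, the other ends of these ranges were -1.41, 0.46, 0.64, -0.62 and 0.12 in that order, and Cd274 in macrophages ran from -0.12 to 0.085. With sums of at least 5 cells they were -0.018 (Tigit) for Il21 and -0.26 (Lgals9) for macrophages, and DESeq2 gave 0.47 (Pdcd1) for macrophages. The macrophage difference of Cd274, -0.01, became 0.028 with DESeq2 size factors, 0.17 without the filter, 0.085 without library 3, 0.040 with sums of at least 20 cells, 0.093 with sums of at least 5 cells and 0.043 with doublets removed.

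Leaving out library 2 gave no value for the Il21 split or any myeloid comparison, and leaving out library 1 none for the Il21 split. Classes from clusters gave none for mature DC, cDC1 against cDC2, or myeloid against B and T. The clusters placed macrophages only in library 2 and monocytes only in libraries 1 and 3. Their values for macrophages against monocytes therefore compare different libraries. Macrophages, mature DC and cDC2 rest on 1 library. In library 3, the shallowest, a CD4 sum of 183 cells holds 1 UMI of Havcr2, so the levels of low genes rest on few UMIs there. The part of depth in that low value was not tested.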
